A study of Mus musculus with 16 samples.

Results

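In all, 40 genes of fatty acid oxidation and of the PGC1 coactivator network were followed in whole mouse muscle after spinal cord injury (SCI), cardiotoxin (CDTX) or both. The members were every probe whose printed symbol equals 1 of the 40 listed symbols, and 36 of the 40 genes had such a probe, with 60 of the 25697 probes of the array. Of these, 48 probes of 29 genes were detected well enough to be tested, as described below, and the array lists 18097 genes in all. Hadha had no probe, and Eci1, Acot13 and Plin2 are on the array only under the older symbols Dci, Them2 and Adfp, so they lay outside the rule and are given separately. Hadh, Fabp4, Ppara, Ppard, Esrrg, Nr4a1 and Nr4a3 had probes that did not pass the detection filter.

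The series measured RNA from hamstring muscle of female mice on 16 Illumina BeadChip arrays, taken 2 days after surgery. The 4 groups, with 4 arrays each, were SCI with intramuscular CDTX (SCI+CDTX), SCI with intramuscular saline (SCI+Saline), sham surgery with CDTX (Sham+CDTX) and sham surgery with saline (Sham+Saline). CDTX comes from snake venom and lyses muscle fibres, and per the series design bone forms in the muscle only after SCI+CDTX. The labels give no strain and no age, and do not say whether the arrays of a group came from separate mice, so p-values measure the spread between these samples, which may be technical. The labels state that array 2 of SCI+CDTX was left out of the authors' final analysis, and it was left out of the fits here, which leaves 3 SCI+CDTX arrays and 15 arrays in all. The array identifiers in the labels put all SCI arrays on 1 slide and all sham arrays on the other, so surgery and slide cannot be told apart in a comparison of SCI with sham, whereas each CDTX comparison lay within a slide.

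Muscle fibres burn fatty acids in their mitochondria. Fatty acids released by lipoprotein lipase or from lipid droplets are carried by binding proteins, activated to acyl-CoA, moved across the mitochondrial membranes as carnitine esters and shortened by repeated turns of beta-oxidation, whose electrons pass through the electron transfer flavoprotein to the respiratory chain. The coactivators PGC1-alpha and PGC1-beta act with estrogen-related receptors, PPARs and their retinoid X receptor partners to switch on these genes, and oxidative fibres are known for high levels of the whole set.

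Mean raw intensity was 230 to 277 on the Sham+Saline arrays and 320 to 373 on the others. Between 11114 and 11850 probes were detected on the Sham+Saline arrays, 11555 to 12787 on SCI+Saline, 13221 to 13569 on Sham+CDTX and 13122 to 13694 on SCI+CDTX. Levels below are log2 normalized intensities of a probe, and levels of different probes are not compared. All 12 skeletal muscle fibre markers were detected. Their summed intensity was 146069 to 155700 in SCI+CDTX, 135729 to 157754 in SCI+Saline, 150213 to 162947 in Sham+CDTX and 163247 to 172852 in Sham+Saline. Sham+Saline was highest and overlapped no other group, and the part of this in the members' levels was not tested. Between SCI and sham 3 of these markers were lower and 0 higher after SCI, with CDTX and with saline alike. With CDTX, 2 of them were lower and 0 higher after SCI, and 2 lower and 2 higher after sham surgery. Macrophage markers were high in both CDTX groups, with summed intensities of 5257 to 7904 in SCI+CDTX and 7302 to 8485 in Sham+CDTX against 532 to 1982 in SCI+Saline and 533 to 867 in Sham+Saline. All 8 of them rose with CDTX after SCI and after sham surgery. Of 7 endothelial markers, 4 fell with CDTX after sham surgery and 6 fell with SCI between the saline groups, and of 4 tested neutrophil markers 2 rose with CDTX after either surgery. In whole muscle, fewer cells of a type and less RNA per cell cannot be told apart. The 4 Sham+CDTX arrays and the excluded SCI+CDTX array stood apart from all others in a probe difference score, the first principal component of the differences between the 2 brightest probes of each of 2770 genes, computed without the members. That score was 18.3 to 20.5 in Sham+CDTX and 14.7 on the excluded array, and between -14 and -3.5 on the other 11 arrays. Members' results that rest on Sham+CDTX are therefore also given, where the text turns on them, from a fit of all 16 arrays with this score as a covariate, called the score fit. Outside Sham+CDTX only the excluded array scored high, so the score nearly marks that group. The adjustment therefore rests largely on the excluded array. A value that moves or a call that ends in the score fit cannot tell the score from an effect in Sham+CDTX.

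A value here is the signal of a 50-base bead probe, and several members were read by more than 1 probe. The first 30 bases of the probes on which the results turn are shown, 5′ to 3′, for the largest difference, for the member that stood out between SCI+CDTX and Sham+CDTX, and for genes whose probes differed. The number after each gene is the probe's start in its transcript, as the deposited table lists it. Capitals mark the bases common to the stretches shown for the Acot2 probes from 2115 and 2118. Over their full length those probes share 47 of 50 bases, while the 2 probes shown for Etfdh, Acadl and Acads share 0.
Decr1 2875: ggctttgcttccttcccctcatccccatct
Pnpla2 1640: ctgtgccttactcctgcccaccaccttttc
Etfdh 1507: gctacacgctgttcgaaatataaggccatc
Etfdh 1879: ggaacaaggtgatggatttcgattacagat
Acadl 165: caggagaatcttttcctcggagcatgacat
Acadl 1732: gctccatattcccccaggacattggttccc
Acads 1679: gtggcccagatggcacggagtttcagtgtt
Acads 1014: cccgcctgctgacctggcgtgctgccatgt
Acot2 2118: TATGTCATGAATTAAGGGGGAACCTTAagt
Acot2 2115: tttTATGTCATGAATTAAGGGGGAACCTTA

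CDTX lowered most members after either surgery. After SCI, 16 of the 29 tested members were lower and 2 higher in SCI+CDTX than in SCI+Saline at a Benjamini-Hochberg adjusted p under 0.05 from limma, at the brightest kept probe of each gene. Over all 10952 genes tested that way, 22.2% were lower and 22.1% higher. The median log2 fold change of the members was -0.58, beside -0.04 over all genes. After sham surgery, 22 of 29 were lower and 0 higher in Sham+CDTX than in Sham+Saline, where 26.9% of all genes were lower and 23.7% higher, with a member median of -0.76 beside -0.05. The Sham+Saline arrays were dimmer before normalization. When arrays were scaled to a common median in place of quantile normalization the sham count was 11 lower and 2 higher. The count after SCI was then 16 lower and 3 higher. Over all genes that scaling gave 962 lower and 5095 higher after sham surgery, and 1692 lower and 3233 higher after SCI. The score fit gave 14 lower and 1 higher after sham surgery and 17 lower and 3 higher after SCI. Over all genes it gave 1037 lower and 1335 higher after sham surgery, and 2278 lower and 2422 higher after SCI. The 2 CDTX comparisons share no array, and 14 members were lower in both, which is 87.5% of the 16 and 63.6% of the 22. Over all genes 1227 were lower in both, 50.4% of 2435 and 41.7% of 2941. These shares have unlike bases, so they do not show closer agreement among the members. Of the members, 75.9% were lower after sham surgery and 55.2% after SCI, beside 26.9% and 22.2% of all genes.

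Fewer members differed between the surgeries, although the range of log2 fold changes between the CDTX groups, -2.26 to 2.51, was wider than with CDTX after SCI, -1.35 to 1.19. Between the saline groups, 12 members were lower and 1 higher after SCI, where 15.8% of all genes were lower and 14.7% higher. The member median was -0.28 beside -0.02. Under median scaling 7 members were lower and 6 higher and the median turned to 0.06. Over all 10952 genes that setting gave 560 lower and 3345 higher, with a median of 0.18. Between the CDTX groups, 6 members were lower and 5 higher in SCI+CDTX than in Sham+CDTX, where 15.8% of all genes were lower and 16.4% higher, with a median of -0.07 beside 0.01. With all 16 arrays and no score, 3 members were lower and 2 higher there, and over all genes 1054 were lower and 1043 higher in place of 1726 and 1801. The score fit, which adds the score to those 16 arrays, left 0 members lower and 1 higher, and over all genes 68 lower and 142 higher. Each array's median level over the 29 members was 8.53 to 8.85 in SCI+CDTX, 8.47 to 8.97 in Sham+CDTX, 9.03 to 9.48 in SCI+Saline and 9.55 to 9.76 in Sham+Saline. The CDTX groups overlapped each other and lay below both saline groups, which did not overlap.

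**Figure D1:**
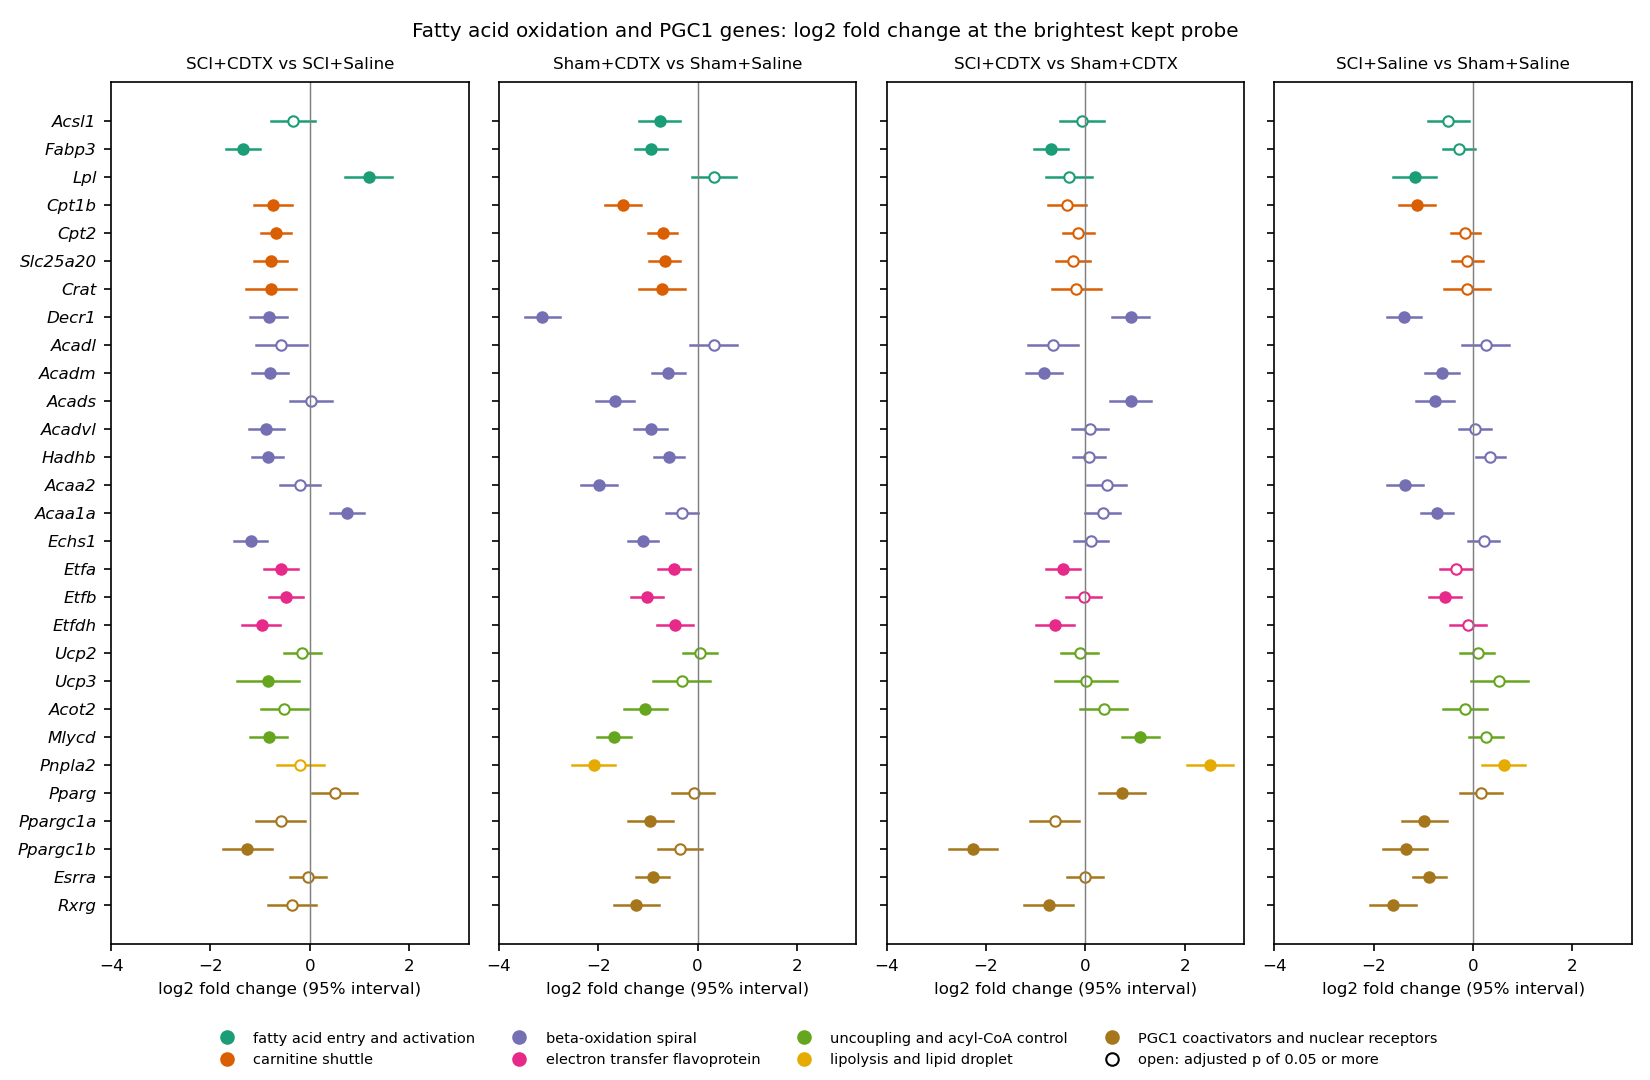
Log2 fold change with its 95% interval (x axis) for each of the 29 tested members (rows, coloured by role) in the 4 comparisons (panels), with filled points where the adjusted p was under 0.05. Most points lie left of 0 in the 2 CDTX comparisons, with Decr1 at -3.13 after sham surgery, while Pnpla2 lies at 2.51 in SCI+CDTX against Sham+CDTX.

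Entry and activation of fatty acids was divided. Fabp3, the fatty acid binding protein of heart and muscle, read 10.65, 10.34 and 10.58 in SCI+CDTX, 11.97, 12.13, 11.92 and 11.46 in SCI+Saline, 11.34, 11.17, 11.15 and 11.21 in Sham+CDTX, and 12.07, 12, 12.1 and 12.44 in Sham+Saline. The SCI+CDTX arrays were the lowest, Sham+CDTX came next, and neither overlapped a saline array. Fabp3 changed by -1.35 ± 0.16 (SE, adjusted p = 5.69e-06) with CDTX after SCI and by -0.94 ± 0.15 (SE, adjusted p = 5.14e-05) after sham surgery. SCI+CDTX was also below Sham+CDTX by a log2 fold change of -0.69 ± 0.16 (SE, adjusted p = 0.00358), a difference of 0.09 in the score fit. Lpl, lipoprotein lipase, went the other way and read 12.32, 12.59 and 12.5 in SCI+CDTX, 10.84, 10.91, 11.65 and 11.73 in SCI+Saline, 12.72, 12.78, 12.77 and 12.9 in Sham+CDTX, and 12.07, 12.19, 12.85 and 12.75 in Sham+Saline. The SCI+Saline arrays were lowest and overlapped no other group. Its log2 fold change was 1.19 ± 0.22 (SE, adjusted p = 0.000344) with CDTX after SCI and -1.18 ± 0.21 (SE, adjusted p = 0.000292) for SCI against sham surgery with saline, and 0.33 ± 0.21 (SE, adjusted p = 0.203) with CDTX after sham surgery, which did not pass. Acsl1, an acyl-CoA synthetase, passed only with CDTX after sham surgery, at -0.76 ± 0.2 (SE, adjusted p = 0.00352), of the 4 comparisons, with -1.5 in the score fit (adjusted p = 0.0417). Under median scaling that Acsl1 value was -0.13 (adjusted p = 0.66) and did not pass.

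The carnitine shuttle was lower with CDTX at all 4 tested members after SCI and after sham surgery, with log2 fold changes of -0.79 to -0.68 and of -1.5 to -0.66, and under median scaling 4 and 1 were lower, and in the score fit 4 and 3. Cpt1b, the muscle form of the carnitine palmitoyltransferase that controls entry, read 9.83, 9.07 and 9.5 in SCI+CDTX, 9.9, 9.99, 10.54 and 10.41 in SCI+Saline, 9.95, 9.88, 9.63 and 9.88 in Sham+CDTX, and 11.42, 11.31, 11.42 and 11.19 in Sham+Saline. Sham+Saline was the highest group and overlapped no other. Cpt1b fell by 0.74 with CDTX after SCI (SE 0.19, adjusted p = 0.00334) and by 1.5 after sham surgery (SE 0.17, adjusted p = 1.03e-06, and -1.5 with an adjusted p of 0.023 in the score fit), and it was the only shuttle member lower after SCI with saline, at -1.13 ± 0.17 (SE, adjusted p = 7.28e-05). Cpt2, the inner membrane transferase, lay between 8.38 and 8.95 on the CDTX arrays and between 9.03 and 9.49 on the saline arrays. Slc25a20, the carnitine-acylcarnitine carrier, lay between 9.04 and 9.63 with CDTX and between 9.87 and 10.47 with saline. Under quantile normalization injection separated the arrays completely at both of these genes, whichever the surgery. Under median scaling the sham CDTX effect was -0.1 for Cpt2 (adjusted p = 0.592) and -0.19 for Slc25a20 (adjusted p = 0.378), and neither passed. The values after SCI, -0.61 for Cpt2 and -0.85 for Slc25a20, passed there (adjusted p = 0.00497 and 0.000986). Crat, carnitine acetyltransferase, changed by -0.78 ± 0.24 (SE, adjusted p = 0.0128) after SCI and by -0.72 ± 0.22 (SE, adjusted p = 0.0106) after sham surgery, where its groups overlapped and the score fit gave -1.29 (adjusted p = 0.11). No shuttle member passed between SCI+CDTX and Sham+CDTX.

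Of 9 tested genes of beta-oxidation, 5 were lower and 1 higher with CDTX after SCI, and 7 were lower and 0 higher after sham surgery, whereas median scaling gave 5 lower and 1 higher in both, and the score fit 6 lower and 1 higher after SCI and 5 lower after sham surgery. Decr1, the reductase that prepares unsaturated fatty acids, had the largest fold change of any member. It read 6.94, 6.69 and 6.94 in SCI+CDTX, 7.33, 7.7, 8.17 and 7.51 in SCI+Saline, 6, 5.95, 5.95 and 5.88 in Sham+CDTX, and 9.29, 9, 8.79 and 9.22 in Sham+Saline. No groups overlapped, with Sham+CDTX lowest, then SCI+CDTX, SCI+Saline and Sham+Saline. CDTX changed Decr1 by -3.13 ± 0.16 (SE, adjusted p = 2.69e-10) after sham surgery, an 8.74-fold lower signal, and by -0.82 ± 0.18 (SE, adjusted p = 0.00108) after SCI. SCI+Saline was below Sham+Saline by a log2 fold change of -1.39 ± 0.16 (SE, adjusted p = 4.76e-06), whereas SCI+CDTX was above Sham+CDTX at 0.91 ± 0.18 (SE, adjusted p = 0.000749). In the score fit the effect after sham surgery was -0.98 (adjusted p = 0.0654) and the difference between the CDTX groups turned to -0.79 (adjusted p = 0.14).

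Acaa2, the mitochondrial thiolase of the last step, read 8.04, 8.11 and 8.06 in SCI+CDTX, 7.71, 8.49, 8.56 and 8.27 in SCI+Saline, 7.43, 7.65, 7.47 and 8.01 in Sham+CDTX, and 9.76, 9.72, 9.43 and 9.61 in Sham+Saline. Sham+Saline stood above all other arrays, and its log2 fold change was -1.99 ± 0.18 (SE, adjusted p = 5.88e-08) with CDTX after sham surgery and -1.37 ± 0.18 (SE, adjusted p = 1.09e-05) for SCI with saline. The score fit put the sham effect at -1.09 (adjusted p = 0.0745). Acads, the short-chain acyl-CoA dehydrogenase, read 8.72, 8.09 and 8.37 in SCI+CDTX, 8.18, 7.96, 8.88 and 8.49 in SCI+Saline, 7.6, 7.5, 7.29 and 7.51 in Sham+CDTX, and 9.37, 9.23, 8.98 and 9.01 in Sham+Saline. Sham+CDTX was lowest and Sham+Saline highest, with both SCI groups between them and overlapping. Acads changed by -1.67 ± 0.18 (SE, adjusted p = 6.77e-07) with CDTX after sham surgery, and SCI+CDTX was above Sham+CDTX by 0.92 ± 0.2 (SE, adjusted p = 0.00177). The value with CDTX after SCI was 0.02 ± 0.2 (SE, adjusted p = 0.953). The score fit turned the sham effect to 0.28 and the difference between CDTX groups to -0.58, both with an adjusted p above 0.05.

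Echs1, the short-chain enoyl-CoA hydratase, read 9.59, 9.34 and 9.26 in SCI+CDTX, 10.56, 10.72, 10.69 and 10.4 in SCI+Saline, 9.04, 9.41, 9.31 and 9.39 in Sham+CDTX, and 10.52, 10.68, 10.22 and 10.12 in Sham+Saline. All CDTX arrays were below all saline arrays, with -1.19 ± 0.16 (SE, adjusted p = 1.49e-05) after SCI and -1.1 ± 0.15 (SE, adjusted p = 7.35e-06) after sham surgery. Acadvl, the very long-chain dehydrogenase, had the same separation, 9.81 to 10.31 on CDTX arrays and 10.65 to 11.26 on saline arrays. Its log2 fold changes were -0.88 ± 0.17 (SE, adjusted p = 0.000422) and -0.94 ± 0.16 (SE, adjusted p = 6.87e-05). Hadhb, the thiolase subunit of the trifunctional protein, lay between 10.64 and 10.99 with CDTX and between 11.29 and 12.08 with saline. The CDTX effect on Hadhb was -0.85 ± 0.15 (SE, adjusted p = 0.000215) after SCI and -0.57 ± 0.14 (SE, adjusted p = 0.00238) after sham surgery. With the score as a covariate the sham effects were -1.34, -1.29 and -1.4 for Echs1, Acadvl and Hadhb, and all 3 passed (adjusted p = 0.0197, 0.0359 and 0.0214). None of these 3 genes passed in either comparison of SCI with sham under quantile normalization. Under median scaling all 3 were higher in SCI+Saline than in Sham+Saline, at 0.73, 0.53 and 0.91 (adjusted p = 0.000502, 0.0137 and 0.000232). The sham CDTX effects there were -0.62 for Echs1 and -0.53 for Acadvl, which passed, and -0.23 for Hadhb (adjusted p = 0.256), which did not.

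Acadm, the medium-chain dehydrogenase, was lower in all 4 comparisons. It read 10.96, 10.54 and 10.56 in SCI+CDTX, 11.34, 11.55, 11.72 and 11.34 in SCI+Saline, 11.1, 11.82, 11.51 and 11.66 in Sham+CDTX, and 12.13, 11.96, 12.22 and 12.13 in Sham+Saline. SCI+CDTX was lowest and Sham+Saline highest, each without overlap. The log2 fold changes were -0.8 ± 0.17 (SE, adjusted p = 0.0011) with CDTX after SCI, -0.59 ± 0.16 (SE, adjusted p = 0.0054) with CDTX after sham surgery, -0.84 ± 0.17 (SE, adjusted p = 0.0013) between the CDTX groups and -0.62 ± 0.16 (SE, adjusted p = 0.00689) between the saline groups. The difference between the CDTX groups was -0.15 in the score fit (adjusted p = 0.886). Under median scaling the values with CDTX after sham surgery, -0.39 (adjusted p = 0.0661), and between the saline groups, -0.15 (adjusted p = 0.563), did not pass. Acaa1a, the peroxisomal thiolase, read 10.44, 10.69 and 10.75 in SCI+CDTX, 9.62, 9.63, 10.17 and 10.09 in SCI+Saline, 10.3, 10.41, 10.27 and 10.14 in Sham+CDTX, and 10.55, 10.36, 10.65 and 10.81 in Sham+Saline. SCI+Saline was low for this gene, and SCI+CDTX exceeded it by 0.75 ± 0.17 (SE, adjusted p = 0.00126), the only beta-oxidation member higher with CDTX. After sham surgery the value was -0.31 ± 0.15 (SE, adjusted p = 0.0978), and with all 16 arrays the value after SCI did not pass. Acadl, the long-chain dehydrogenase, did not pass in any of the 4 comparisons at its brightest probe under quantile normalization without the score. Under median scaling that probe was higher with CDTX after sham surgery at 1 (adjusted p = 0.00216). It was also higher there in SCI+Saline than in Sham+Saline at 0.77 (adjusted p = 0.0214). The score fit put the sham CDTX effect at -2.03 (adjusted p = 0.00714). The other Acadl probes are described below.

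The electron transfer flavoprotein was lower with CDTX at the brightest probe of all 3 members in both comparisons. However, 3 after SCI and 1 after sham surgery were lower under median scaling, and 2 and 1 in the score fit. Etfdh, which passes the electrons on to ubiquinone, read 8.32, 8 and 8.2 in SCI+CDTX, 8.8, 9.31, 9.35 and 9.12 in SCI+Saline, 8.41, 8.95, 9.01 and 8.76 in Sham+CDTX, and 9.15, 8.99, 9.63 and 9.21 in Sham+Saline at its brightest probe. SCI+CDTX overlapped neither SCI+Saline nor Sham+CDTX. Its log2 fold change was -0.97 ± 0.19 (SE, adjusted p = 0.000369) after SCI and -0.46 ± 0.17 (SE, adjusted p = 0.0335) after sham surgery. Etfa and Etfb, the flavoprotein's subunits, changed by -0.58 ± 0.17 (SE, adjusted p = 0.00816) and -0.48 ± 0.17 (SE, adjusted p = 0.0262) after SCI. After sham surgery Etfb changed by -1.02 ± 0.16 (SE, adjusted p = 2.56e-05) and Etfa by -0.47 ± 0.15 (SE, adjusted p = 0.0152). The sham effects in the score fit were -1.93 for Etfdh (adjusted p = 0.007), -0.22 for Etfb (adjusted p = 0.752) and -1.09 for Etfa (adjusted p = 0.0618). Under median scaling the Etfdh value with CDTX after sham surgery turned to 0.15 (adjusted p = 0.575). Between the CDTX groups Etfdh at -0.61 ± 0.19 (SE, adjusted p = 0.0177) and Etfa at -0.44 ± 0.17 (SE, adjusted p = 0.0499) were lower in SCI+CDTX. Both calls ended in the score fit, where the values turned to 0.59 (adjusted p = 0.418) and 0.09 (adjusted p = 0.944), and the Etfdh call was also lost without array 3 of SCI+CDTX and without array 2 or 3 of Sham+CDTX.

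Among genes of uncoupling and acyl-CoA control, Mlycd, which breaks down malonyl-CoA, the inhibitor of the carnitine step, read 9.34, 9.09 and 9.5 in SCI+CDTX, 9.97, 9.77, 10.5 and 10.33 in SCI+Saline, 8.06, 8.27, 8.34 and 8.11 in Sham+CDTX, and 10, 9.91, 9.59 and 10.02 in Sham+Saline. Sham+CDTX was lowest and SCI+CDTX next, neither overlapping another group. CDTX changed Mlycd by -1.68 ± 0.16 (SE, adjusted p = 1.8e-07) after sham surgery and by -0.83 ± 0.18 (SE, adjusted p = 0.00099) after SCI, and SCI+CDTX was above Sham+CDTX by 1.11 ± 0.18 (SE, adjusted p = 0.000122), which was 0.86 in the score fit (adjusted p = 0.139). Ucp3, the uncoupling protein of muscle mitochondria, was 5.41 to 5.57 in SCI+CDTX and 5.99 to 6.58 in SCI+Saline, a log2 fold change of -0.84 ± 0.3 (SE, adjusted p = 0.0274), and 4.94 to 6.85 over the sham arrays, whose groups overlapped. The Ucp3 value with CDTX after SCI did not pass at its second probe, -0.64 (adjusted p = 0.084), or under median scaling, -0.5 (adjusted p = 0.227). It passed in the score fit, at -0.98 (adjusted p = 0.0227). Acot2, a mitochondrial thioesterase, was dim, with its brightest probe detected on 12 of 16 arrays and on 1 of 4 in Sham+CDTX, where the change with CDTX was -1.05 ± 0.21 (SE, adjusted p = 0.000376), a value of -0.04 in the score fit (adjusted p = 0.968). Ucp2 was detected on 5 of 16 arrays and passed in none of the 4 comparisons.

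Pnpla2, the lipase that starts triglyceride breakdown in lipid droplets, was the member highest in SCI+CDTX relative to Sham+CDTX. It read 12.1, 11.71 and 11.95 in SCI+CDTX, 11.65, 11.67, 12.82 and 12.32 in SCI+Saline, 9.43, 9.35, 9.18 and 9.66 in Sham+CDTX, and 11.63, 11.49, 11.44 and 11.42 in Sham+Saline. The 4 Sham+CDTX arrays lay more than 1 log2 unit below every other array, and both SCI groups lay above both sham groups. SCI+CDTX exceeded Sham+CDTX by a log2 fold change of 2.51 ± 0.22 (SE, adjusted p = 3.83e-07), which is 5.71-fold, and CDTX changed Pnpla2 by -2.09 ± 0.21 (SE, adjusted p = 2.08e-07) after sham surgery. With CDTX after SCI the value was -0.19 ± 0.22 (SE, adjusted p = 0.523) and did not pass. In the score fit the difference between the CDTX groups was 1.37 (adjusted p = 0.0249) and still passed, while the sham effect was -0.56 (adjusted p = 0.403). Between the saline groups the difference of 0.62 ± 0.21 (SE, adjusted p = 0.031) did not pass without array 3 or 4 of SCI+Saline or array 2, 3 or 4 of Sham+Saline, where it was 0.38 to 0.61. Adipocyte markers moved in the same comparisons, with 6 of 7 tested markers higher in SCI+CDTX than in Sham+CDTX and 4 lower with CDTX after sham surgery. Their summed intensity was 12181 to 12249 in SCI+CDTX, 7672 to 18807 in SCI+Saline, 4911 to 8272 in Sham+CDTX and 10698 to 11728 in Sham+Saline, and their part in the Pnpla2 difference was not tested.

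Among the coactivators and receptors, Ppargc1b, which encodes PGC1-beta, separated SCI from sham muscle. It read 5.44, 5.11 and 4.83 in SCI+CDTX, 6.78, 6.25, 6.32 and 6.2 in SCI+Saline, 7.18, 6.97, 7.97 and 7.46 in Sham+CDTX, and 7.42, 7.86, 8.15 and 7.57 in Sham+Saline. SCI+CDTX was lowest and SCI+Saline next, neither overlapping another group, while the sham groups overlapped. SCI+CDTX was below Sham+CDTX by a log2 fold change of -2.26 ± 0.23 (SE, adjusted p = 1.43e-06), or 4.81-fold, and SCI+Saline was below Sham+Saline by -1.36 ± 0.21 (SE, adjusted p = 9.53e-05). CDTX changed it by -1.26 ± 0.23 (SE, adjusted p = 0.000265) after SCI, and the value after sham surgery, -0.36 ± 0.21 (SE, adjusted p = 0.18), did not pass. In the score fit the difference between the CDTX groups was -0.58 (adjusted p = 0.552), that between the saline groups was -1.55 (adjusted p = 4.31e-05), and the sham CDTX effect was -2.46 (adjusted p = 0.00569).

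Ppargc1a, which encodes PGC1-alpha, was near background, and its probe was detected on 13 of 16 arrays. It read 4.47, 4.41 and 4.62 in SCI+CDTX, 5.3, 5.37, 4.91 and 4.74 in SCI+Saline, 4.5, 5.14, 5.45 and 5.39 in Sham+CDTX, and 5.9, 5.94, 6.66 and 5.77 in Sham+Saline. Sham+Saline was the highest group without overlap. CDTX changed it by -0.95 ± 0.22 (SE, adjusted p = 0.00137) after sham surgery, and SCI+Saline was below Sham+Saline at -0.98 ± 0.22 (SE, adjusted p = 0.0021). The values with CDTX after SCI, -0.58 ± 0.24 (SE, adjusted p = 0.0538), and between the CDTX groups, -0.62 ± 0.24 (SE, adjusted p = 0.0552), did not pass. The score fit put the sham CDTX effect at -2.18 (adjusted p = 0.008) and the difference between the CDTX groups at 0.3 (adjusted p = 0.797). Under median scaling the sham CDTX effect on Ppargc1a was -0.3 (adjusted p = 0.294) and did not pass. The differences between the saline groups, -0.64 (adjusted p = 0.0385), and between the CDTX groups, -0.82 (adjusted p = 0.0174), passed there. Esrra, the estrogen-related receptor alpha, read 8.85, 8.72 and 8.63 in SCI+CDTX, 8.88, 8.24, 8.83 and 9.11 in SCI+Saline, 8.75, 8.86, 8.58 and 8.78 in Sham+CDTX, and 9.64, 9.71, 9.66 and 9.55 in Sham+Saline. It was highest in Sham+Saline without overlap, with -0.9 ± 0.16 (SE, adjusted p = 0.000111) for CDTX after sham surgery and -0.88 ± 0.16 (SE, adjusted p = 0.000361) for SCI with saline, but under median scaling these were -0.32 (adjusted p = 0.147) and -0.45 (adjusted p = 0.0598), and the score fit gave -0.62 (adjusted p = 0.284) for the first. With CDTX after SCI the Esrra value was -0.03 ± 0.17 (SE, adjusted p = 0.907), and between the CDTX groups it was -0.01 ± 0.17 (SE, adjusted p = 0.981).

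Rxrg, the retinoid X receptor gamma, read 6.37, 5.98 and 6.23 in SCI+CDTX, 6.38, 7.19, 6.4 and 6.23 in SCI+Saline, 6.64, 7.04, 7 and 7.07 in Sham+CDTX, and 8.63, 8.41, 7.7 and 7.91 in Sham+Saline. Sham+Saline was highest without overlap. It was lower after SCI with saline at -1.61 ± 0.22 (SE, adjusted p = 1.94e-05), lower with CDTX after sham surgery at -1.23 ± 0.22 (SE, adjusted p = 0.00012) and lower in SCI+CDTX than in Sham+CDTX at -0.74 ± 0.23 (SE, adjusted p = 0.0215). With the score as a covariate the sham CDTX effect was -1.42 (adjusted p = 0.0715) and the difference between the CDTX groups -0.59 (adjusted p = 0.551), and neither passed. The last call was also lost without array 3 or 4 of SCI+CDTX or array 2 or 4 of Sham+CDTX. Under median scaling the sham CDTX effect on Rxrg was -0.45 (adjusted p = 0.0621) and did not pass, while the difference between the CDTX groups, -0.8 (adjusted p = 0.0075), did. Pparg, the receptor that drives fat cell formation, read 7.41, 7.72 and 7.31 in SCI+CDTX, 6.69, 6.44, 7.59 and 7.21 in SCI+Saline, 6.68, 6.46, 6.85 and 6.99 in Sham+CDTX, and 7.02, 6.71, 6.87 and 6.72 in Sham+Saline. SCI+CDTX was above Sham+CDTX by 0.74 ± 0.22 (SE, adjusted p = 0.0158), a call that was lost without array 3 of SCI+CDTX or array 2 of Sham+CDTX and turned to -0.47 in the score fit (adjusted p = 0.566). Pparg did not pass in the other 3 comparisons, with 0.5 ± 0.22 (SE, adjusted p = 0.0749) for CDTX after SCI, -0.08 ± 0.2 (SE, adjusted p = 0.759) after sham surgery and 0.15 ± 0.2 (SE, adjusted p = 0.63) between the saline groups, and the sham effect turned to 0.75 under median scaling (adjusted p = 0.013) and to 1.48 in the score fit (adjusted p = 0.0254). The probes for Ppara, Ppard and Esrrg were detected on 0 of 16 arrays, and those for Nr4a1, Fabp4 and Hadh likewise. With no detection there is no comparison for these genes.

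**Figure D2:**
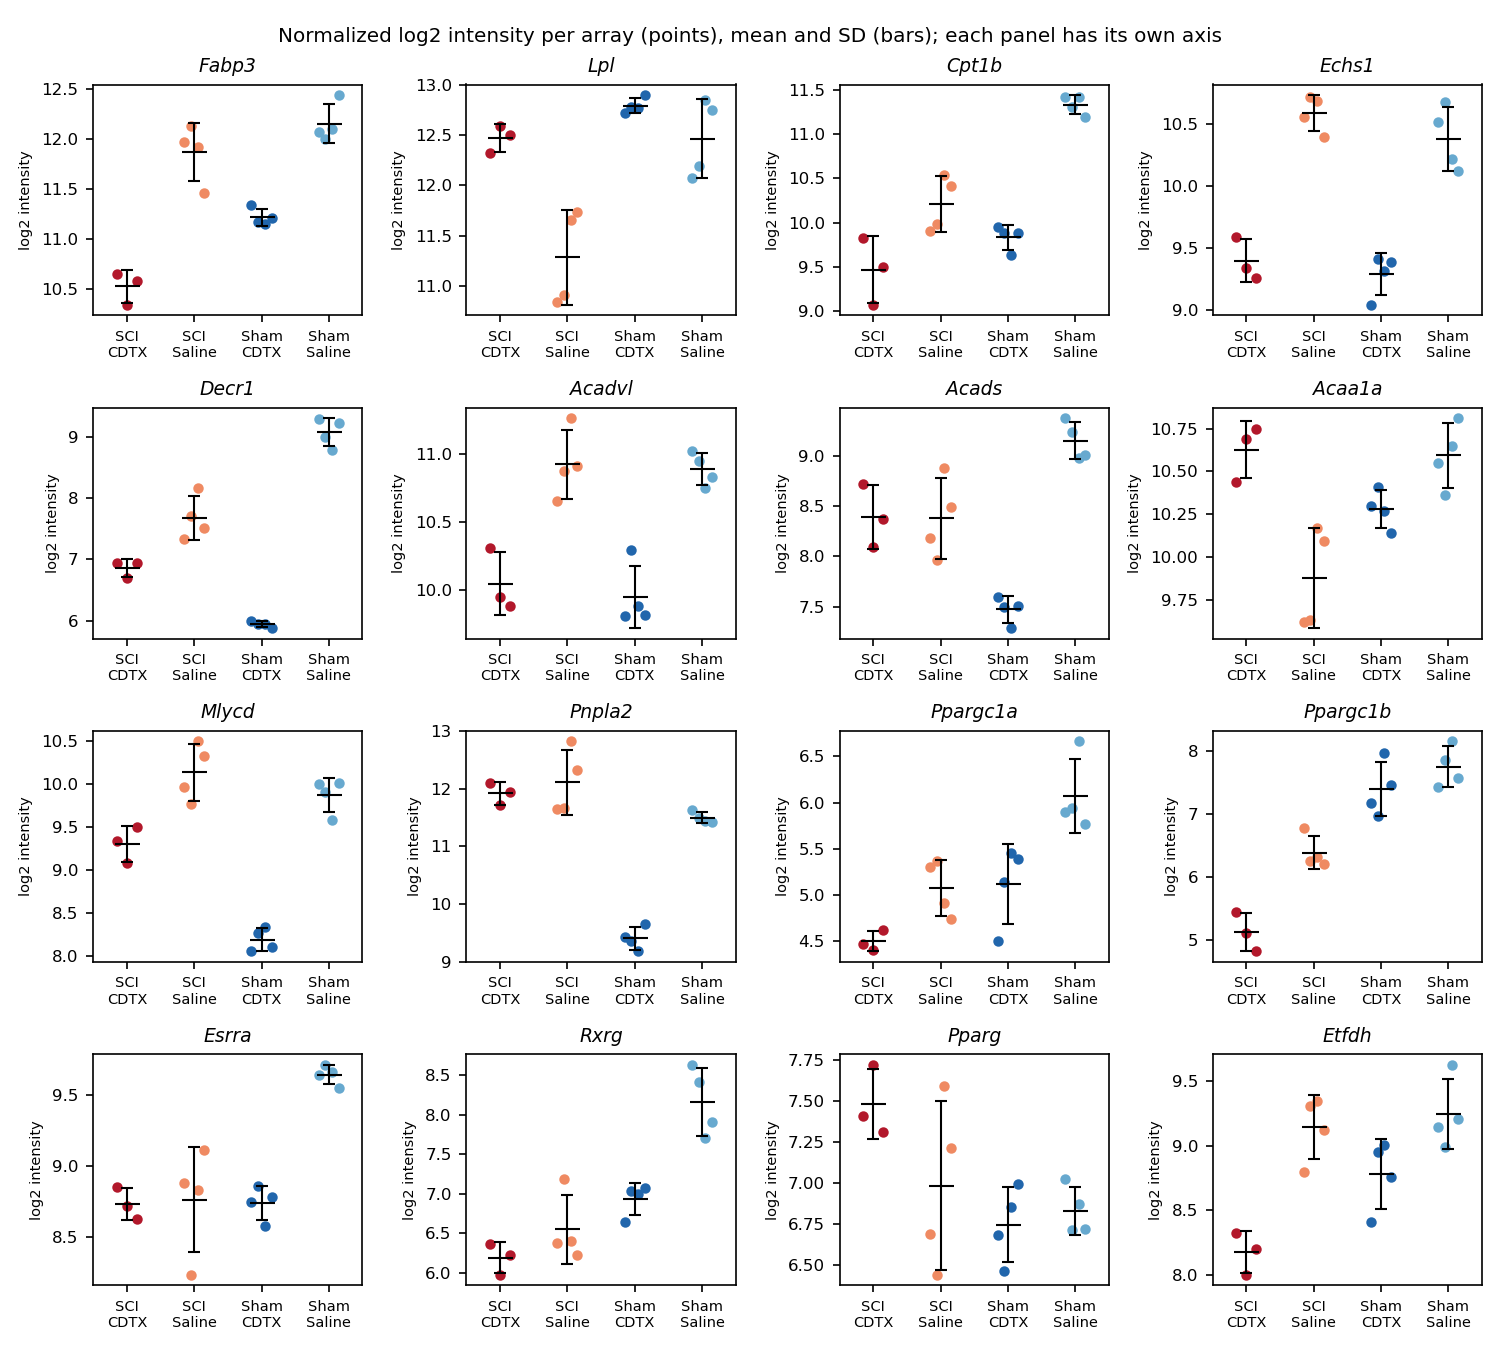
Log2 normalized intensity (y axis, its own range in each panel) of 16 members on each of the 15 arrays (points) in the 4 groups, with the mean and SD of each group. Pnpla2 is 9.18 to 9.66 in Sham+CDTX and 11.42 or higher on all other arrays, and Ppargc1b is 4.83 to 5.44 in SCI+CDTX.

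The CDTX effect differed by surgery for 10 members. This interaction is the CDTX effect after SCI minus that after sham surgery, and a constant difference between slides cancels in it. It passed upward for 9 members and downward for 1, where 13.8% of all genes passed upward and 11.6% downward. The member median was 0.37 beside 0.01 over all genes. Median scaling gave 4 members upward and 7 downward with a median of -0.18. Over all 10952 genes it gave 715 upward and 2973 downward with a median of -0.24. The score fit gave 0 and 0, where over all genes 9 passed upward and 26 downward. The largest was Decr1 at 2.3 ± 0.24 (SE, adjusted p = 7.12e-06), followed by Pnpla2 at 1.9 ± 0.31 (SE, adjusted p = 0.000241), Acaa2 at 1.8 ± 0.26 (SE, adjusted p = 9.56e-05) and Acads at 1.69 ± 0.27 (SE, adjusted p = 0.000234). At these 4 genes the fall with CDTX after sham surgery was larger than the value after SCI. The other Acads probe, from 1014, had an interaction of 0.3 ± 0.25 (SE, adjusted p = 0.442). Acaa1a at 1.06 ± 0.22 (SE, adjusted p = 0.00214) and Lpl at 0.86 ± 0.31 (SE, adjusted p = 0.0495) were higher with CDTX after SCI and did not pass after sham surgery. Esrra at 0.87, Mlycd at 0.85 and Cpt1b at 0.76 passed with adjusted p of 0.0105, 0.0154 and 0.0354. Ppargc1b at -0.9 ± 0.31 (SE, adjusted p = 0.0449) was the 1 downward member, and it passed in 7 of 15 fits that each left out 1 array. In the score fit the Ppargc1b interaction turned to 0.97 (adjusted p = 0.448) and that of Acaa1a to -0.14 (adjusted p = 0.915), and Decr1 was at 0.41 (adjusted p = 0.661), Pnpla2 at 0.62 (adjusted p = 0.548), Acaa2 at 1.02 (adjusted p = 0.292) and Acads at 0.02 (adjusted p = 0.994). Markers of other cell types moved in the same interaction, with 4 of 7 endothelial markers upward (median 1.02), 2 of 7 adipocyte markers upward (median 0.8), and 3 of 8 macrophage markers downward and 1 upward (median -0.89), and their part in the members' interaction was not tested. Carnitine and spiral genes such as Cpt2, at 0.02 ± 0.2, and Acadvl, at 0.06 ± 0.23, had interactions below their SE.

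**Figure D3:**
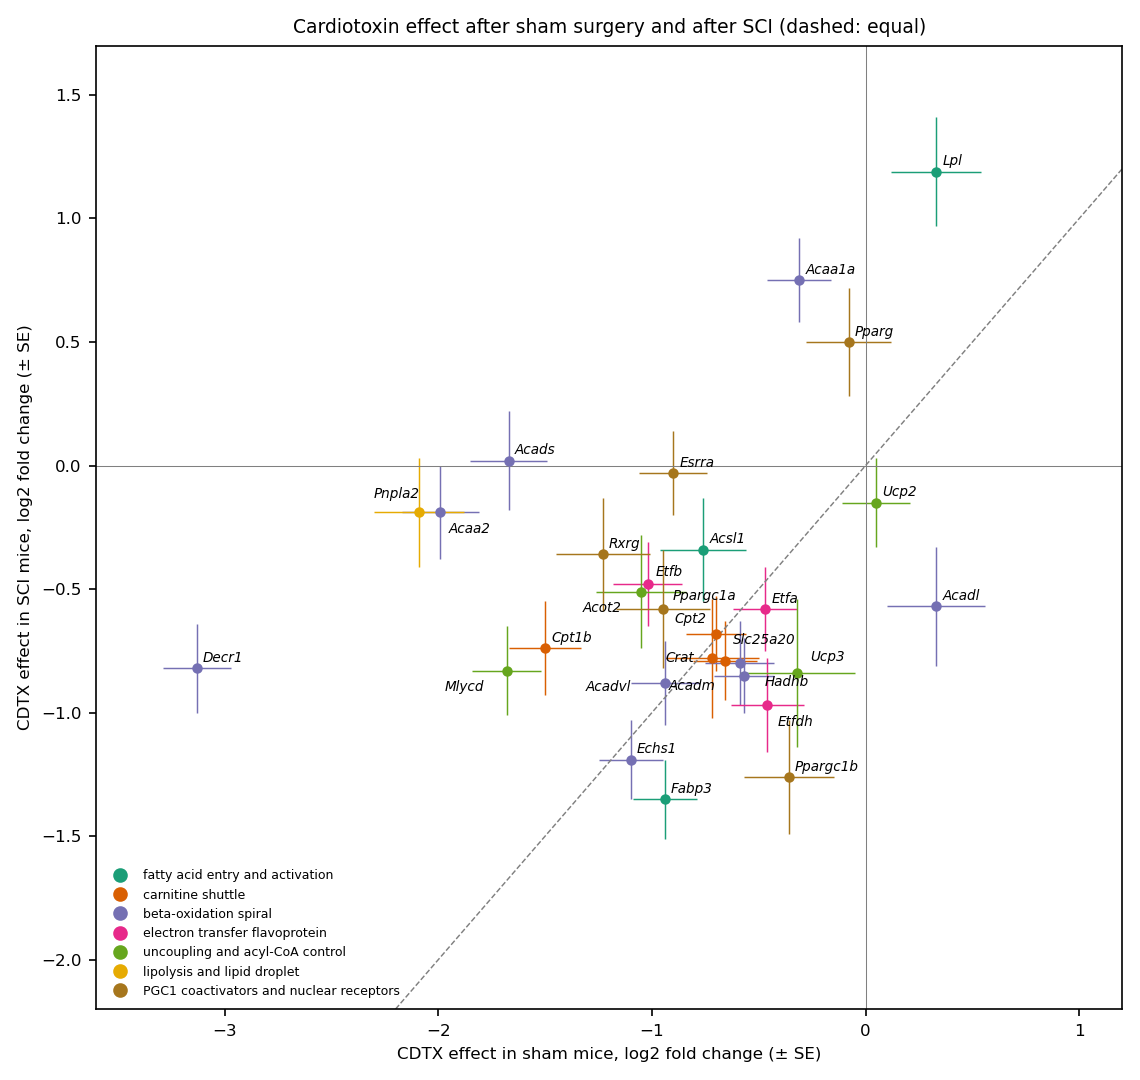
Log2 fold change with CDTX after sham surgery (x axis) against that after SCI (y axis) for the 29 tested members, coloured by role, with SE bars and a dashed line where both are equal. Decr1 (-3.13 and -0.82), Pnpla2 (-2.09 and -0.19), Acaa2 and Acads lie far above the line, and Ppargc1b (-0.36 and -1.26) lies below it.

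Of the members, 12 had 2 or more kept probes, and the second brightest was compared with the brightest. In the CDTX comparisons the log2 fold changes had the same sign in 11 of 12 genes after SCI and in 11 of 12 after sham surgery, 91.7% in each, beside 79.8% and 74.1% of the 2728 other genes with 2 or more kept probes. Between the CDTX groups 6 of 12 had the same sign, 50% beside 64.8%, and between the saline groups 8 of 12, 66.7% beside 70.6%. The 4 Acaa2 probes, 3 of which share 48 or 49 of 50 bases, gave -1.99, -1.65, -1.95 and -1.93 with CDTX after sham surgery. Both Cpt1b probes passed after SCI, at -0.74 and -1.01, and after sham surgery, at -1.5 and -1.94.

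Etfdh was the only member whose probes were called in opposite directions in a comparison. Its probe from 1507 gave -0.61 ± 0.19 (SE, adjusted p = 0.0177) between the CDTX groups, and that from 1879 gave 0.7 ± 0.19 (SE, adjusted p = 0.0105). The second probe read 5.09, 4.92 and 5.49 in SCI+CDTX, 5.37, 5.75, 6.02 and 5.68 in SCI+Saline, 4.46, 4.48, 4.41 and 4.52 in Sham+CDTX, and 4.92, 4.4, 5.27 and 4.89 in Sham+Saline, was dim, and was detected on 1 of 4 Sham+CDTX arrays. Acadl had a brightest probe, from 165, at 0.33 ± 0.23 (SE, adjusted p = 0.246) with CDTX after sham surgery, and another, from 1732, at -1.53 ± 0.19 (SE, adjusted p = 2.94e-06). The Acadl probe from 165 read 8.19, 7.96 and 7.96 in SCI+CDTX, 8.84, 9.03, 8.31 and 8.26 in SCI+Saline, 8.27, 9.08, 8.52 and 8.87 in Sham+CDTX, and 8.42, 7.73, 8.79 and 8.49 in Sham+Saline, and that from 1732 read 6.89, 7.08 and 7.43 in SCI+CDTX, 7.75, 7.99, 8.27 and 7.53 in SCI+Saline, 5.96, 6.32, 6.28 and 6.42 in Sham+CDTX, and 8.27, 7.52, 7.52 and 7.8 in Sham+Saline. Only the second showed a low Sham+CDTX group, at 5.96 to 6.42 against 7.52 to 8.27 in Sham+Saline. With CDTX after SCI the Acadl probe from 1732 gave -0.75 (adjusted p = 0.00664) and that from 165 gave -0.57 (adjusted p = 0.0655). Between the CDTX groups the probe from 1732 gave 0.89 (adjusted p = 0.00327) and that from 165 gave -0.65 (adjusted p = 0.0524). Acads gave -1.67 ± 0.18 (SE, adjusted p = 6.77e-07) at its probe from 1679 and -0.6 ± 0.17 (SE, adjusted p = 0.00768) at that from 1014, and between the CDTX groups 0.92 and -0.34, of which the second did not pass (adjusted p = 0.191). The Slc25a20 probes differed in size with CDTX after sham surgery, at -0.66 and -1.48. Of 3 Etfa probes only the brightest passed there, with the others at -0.37 (adjusted p = 0.0512) and -0.27 (adjusted p = 0.168). Those others did not pass between the CDTX groups either, at -0.37 (adjusted p = 0.109) and -0.41 (adjusted p = 0.0802). The Etfdh probe from 1879 gave -0.41 (adjusted p = 0.0697) with CDTX after sham surgery. Even the Acot2 probes from 2118 and 2115, with all but a few bases in common, gave -1.05 and -0.3 with CDTX after sham surgery (adjusted p = 0.000376 and 0.211), and their signals were near background.

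**Figure D4:**
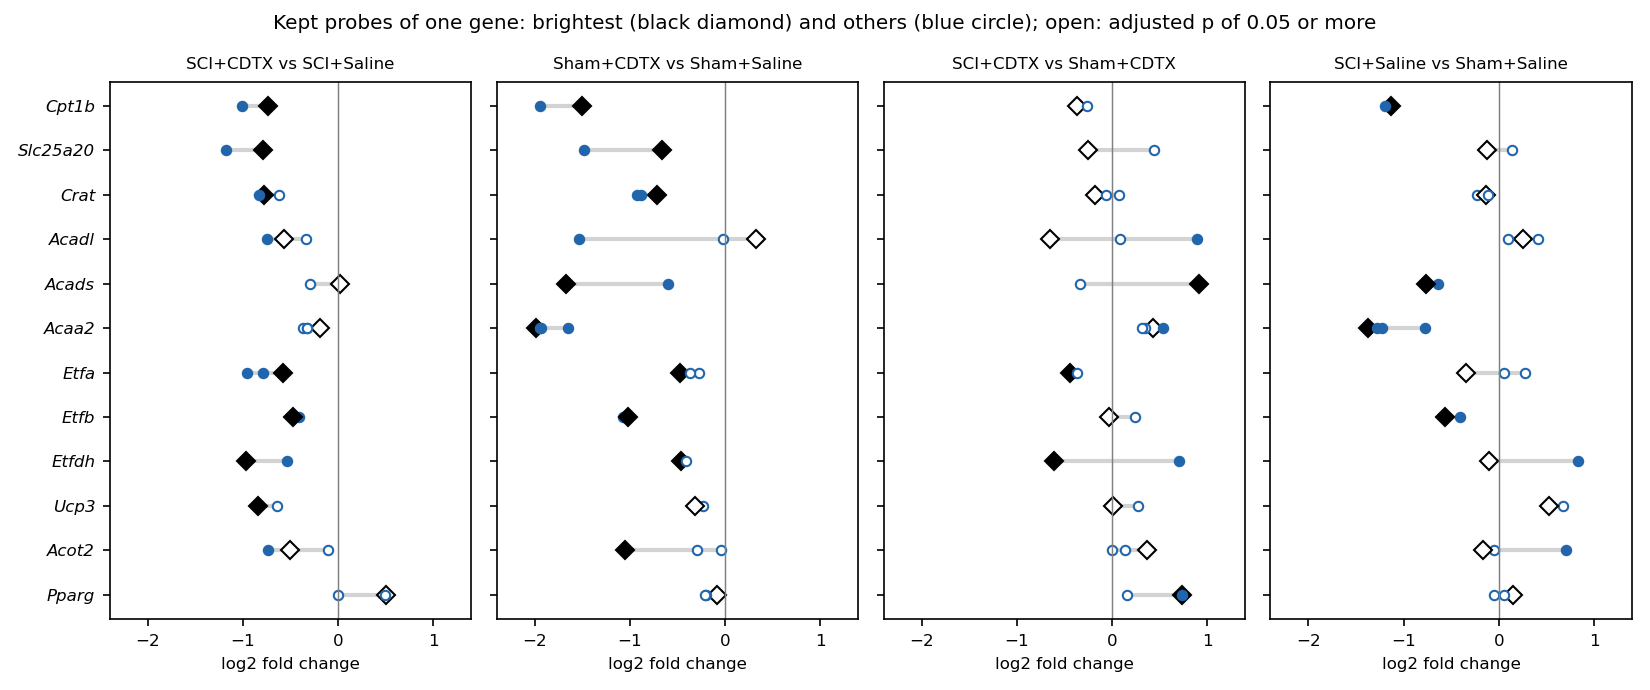
Log2 fold change (x axis) of every kept probe of the 12 members with 2 or more (rows) in the 4 comparisons (panels), with black diamonds for the brightest probe and blue circles for the others. The Etfdh probes lie at -0.61 and 0.7 in SCI+CDTX against Sham+CDTX, and the Acadl probes reach from 0.33 down to -1.53 with CDTX after sham surgery.

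The score fit widened the errors where Sham+CDTX entered. The median SE over the members was 0.42 with CDTX after sham surgery in place of 0.17, and 0.29 between the CDTX groups in place of 0.19, while it was 0.2 with CDTX after SCI in place of 0.19. The CDTX effect after SCI moved less, with Fabp3 at -1.44, Echs1 at -1.19, Lpl at 1.16 and Ppargc1b at -1.49 in the score fit. Some calls changed there. Acadl at -0.88 (adjusted p = 0.00392), Ppargc1a at -0.78 (adjusted p = 0.0156) and Pparg at 0.72 (adjusted p = 0.0104) passed with the score, and Etfb at -0.4 (adjusted p = 0.0944) no longer did. In the sham comparison Fabp3 at -1.89 (adjusted p = 0.00381), Mlycd at -1.28 (adjusted p = 0.0301) and Echs1 at -1.34 (adjusted p = 0.0197) still passed. The excluded array was the only SCI+CDTX array with a high score, and where Sham+CDTX enters, the score fit rests largely on that array. It lay outside the range of the other 3 SCI+CDTX arrays at 24 of 29 members, above at 16 and below at 8, and nearer to the Sham+CDTX mean at 19. Normalized with all 16 arrays, it read 5.46 for Decr1, 11.23 for Pnpla2 and 6.66 for Ppargc1b. The other SCI+CDTX arrays then read 6.73 to 6.98, 11.73 to 12.12 and 4.86 to 5.48.

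**Figure D5:**
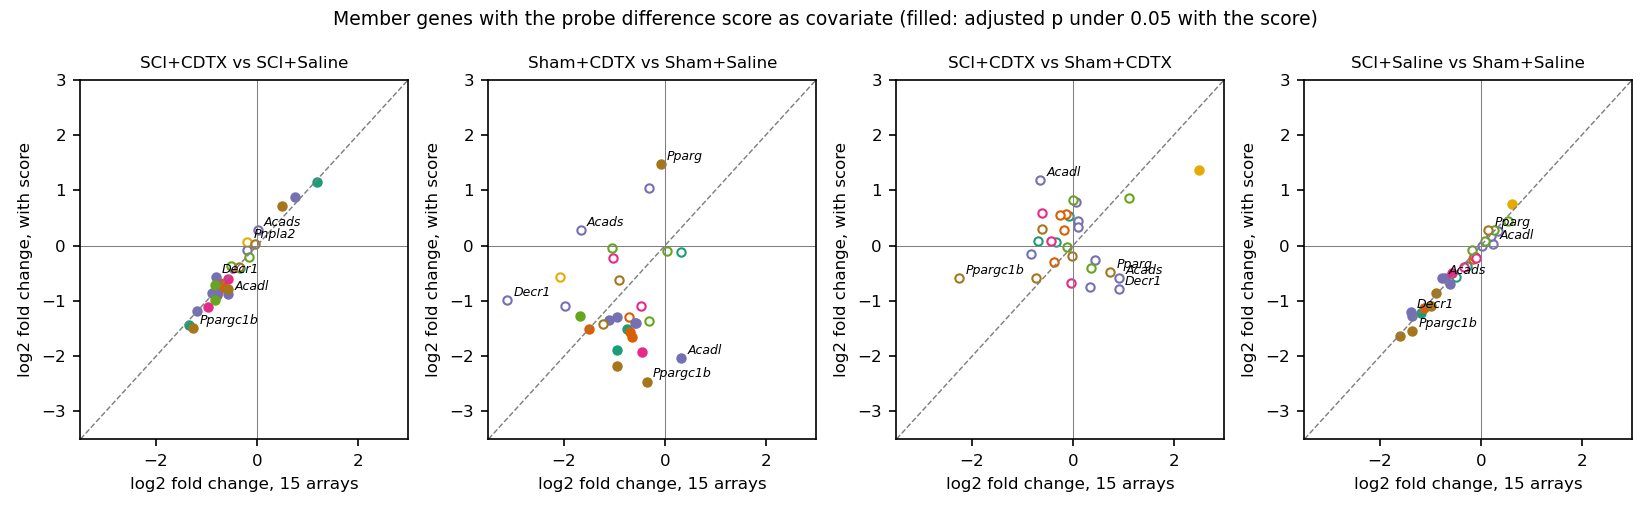
Log2 fold change of the 29 members without (x axis, 15 arrays) and with (y axis, 16 arrays) the probe difference score as a covariate, in the 4 comparisons (panels). Points follow the diagonal in SCI+CDTX against SCI+Saline and leave it in the comparisons with Sham+CDTX, where Decr1 moves from -3.13 to -0.98 after sham surgery.

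Other genes of the pathway, listed with earlier results of these data known, numbered 72, of which 66 were on the array and 62 were tested. With CDTX 23 were lower and 6 higher after SCI, and 29 lower and 6 higher after sham surgery. Median scaling gave 14 lower and 11 higher after SCI, and 10 lower and 18 higher after sham surgery. Over all 10952 genes median scaling gave 1692 lower and 3233 higher after SCI, and 962 lower and 5095 higher after sham surgery. Between the CDTX groups 13 of the 62 were lower and 14 higher. Between the saline groups 14 were lower and 11 higher, where median scaling gave 5 lower and 20 higher. Over all genes median scaling gave 560 lower and 3345 higher between the saline groups. Perm1, a PGC1 target that regulates oxidative genes in muscle, was 7.29 ± 0.62 (SD, n = 3) in SCI+CDTX, 7.95 ± 0.19 (n = 4) in SCI+Saline, 9.6 ± 0.41 (n = 4) in Sham+CDTX and 11.25 ± 0.37 (n = 4) in Sham+Saline. Its log2 fold change was -3.29 ± 0.24 (SE, adjusted p = 1.68e-08) between the saline groups, -2.3 ± 0.26 (SE, adjusted p = 4.72e-06) between the CDTX groups and -1.65 ± 0.24 (SE, adjusted p = 1.83e-05) with CDTX after sham surgery. Prkaa2, the catalytic alpha2 subunit of AMP-activated kinase, was 5.44 ± 0.52 (SD, n = 3) in SCI+CDTX, 8.07 ± 0.67 (n = 4) in SCI+Saline, 7.72 ± 0.72 (n = 4) in Sham+CDTX and 7.77 ± 0.62 (n = 4) in Sham+Saline. SCI+CDTX had the lowest mean, at -2.62 ± 0.4 (SE, adjusted p = 4.31e-05) against SCI+Saline and -2.28 ± 0.4 (SE, adjusted p = 0.00026) against Sham+CDTX, with an interaction of -2.58 ± 0.54 (SE, adjusted p = 0.00192). Of 17 tested PGC1 network genes, 7 were lower and 1 higher with CDTX after SCI, and 7 lower and 2 higher after SCI with saline.

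The highest fold changes of these genes with CDTX were at Acsl5, Fabp5 and Angptl4. Acsl5, an acyl-CoA synthetase, changed by 1.85 ± 0.2 (SE, adjusted p = 2.32e-06) after SCI and by 1.33 ± 0.19 (SE, adjusted p = 1.17e-05) after sham surgery. Fabp5, a binding protein of macrophages, fat and skin, changed by 1.52 ± 0.3 (SE, adjusted p = 0.000554) and 2.7 ± 0.28 (SE, adjusted p = 3.47e-07), and Angptl4, an inhibitor of lipoprotein lipase, by 1.49 ± 0.38 (SE, adjusted p = 0.00417) and 1.12 ± 0.36 (SE, adjusted p = 0.0136). Macrophage markers, given above, rose in the same 2 comparisons, and their part in these changes was not tested. Acsl6, another synthetase, was lower with CDTX after SCI at -1.66 ± 0.19 (SE, adjusted p = 2.67e-06), and Pex11a, a peroxisome division factor, at -1.69 ± 0.23 (SE, adjusted p = 1.75e-05). After sham surgery Rxrb, a retinoid X receptor, changed by -1.54 ± 0.2 (SE, adjusted p = 4.62e-06) and Plin5, a lipid droplet protein of oxidative tissue, by -1.5 ± 0.21 (SE, adjusted p = 1.25e-05). Among 10 lipid droplet and lipolysis genes 6 were lower with CDTX after sham surgery and 5 were higher in SCI+CDTX than in Sham+CDTX. With CDTX after SCI 3 of them were lower and 1 higher.

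Between the CDTX groups, Angptl4 at 1.37, Acaa1b at 1.29 and Rxrb at 1.14 were the highest of these genes and Pdk2, a kinase that restrains glucose oxidation, at -1.68 ± 0.24 (SE, adjusted p = 4.58e-05), was among the lowest. Between the saline groups Acot1, a cytosolic thioesterase, was 7.03 ± 0.26 (SD, n = 3) in SCI+CDTX, 8.28 ± 0.7 (n = 4) in SCI+Saline, 5.96 ± 0.2 (n = 4) in Sham+CDTX and 6.06 ± 0.51 (n = 4) in Sham+Saline, a log2 fold change of 2.23 ± 0.28 (SE, adjusted p = 9.34e-06), followed by Eci2 at 1.34 ± 0.15 (SE, adjusted p = 3.15e-06) and Acsl6 at 1.23 ± 0.17 (SE, adjusted p = 2.94e-05), whereas Esrrb at -1.24 and Prkag3 at -1.07 were lower. The interaction was highest at Rxrb, with 2.04 ± 0.3 (SE, adjusted p = 0.000105), Mgll at 1.91 and Plin4 at 1.43, and low at Acsl6 with -1.63 and Acsl3 with -1.57. In the score fit 2 of the 62 genes were higher and 0 lower between the CDTX groups, and 0 and 0 passed in the interaction. Mitochondrial inner membrane and citrate cycle markers, 6 tested of 8 listed, were lower at 5 with CDTX after SCI, at 3 after sham surgery, at 5 in SCI+CDTX against Sham+CDTX and at 3 between the saline groups. Their summed intensity was 10036 to 14693 in SCI+CDTX, 16803 to 23395 in SCI+Saline, 17658 to 20059 in Sham+CDTX and 26062 to 28292 in Sham+Saline.

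The 3 genes found under older symbols were fitted in the same way, without the score. Plin2, which coats lipid droplets, was 9.51 ± 0.39 (SD, n = 3) in SCI+CDTX, 7.73 ± 0.55 (n = 4) in SCI+Saline, 8.94 ± 0.42 (n = 4) in Sham+CDTX and 6.67 ± 0.2 (n = 4) in Sham+Saline. Its log2 fold change was 1.79 ± 0.27 (SE, adjusted p = 4.06e-05) with CDTX after SCI and 2.27 ± 0.25 (SE, adjusted p = 6.04e-07) after sham surgery, opposite to most members. Eci1, the enoyl-CoA isomerase for unsaturated fatty acids, changed by -1.28 ± 0.18 (SE, adjusted p = 2.14e-05) and -1.09 ± 0.17 (SE, adjusted p = 2.57e-05), and Acot13, a thioesterase, by -0.91 ± 0.16 (SE, adjusted p = 0.000217) and -0.67 ± 0.15 (SE, adjusted p = 0.00119). Between the CDTX groups Acot13 was lower at -0.68 ± 0.16 (SE, adjusted p = 0.0038), and Plin2 and Eci1 did not pass.

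Since many members fell together, the 250 bases upstream of their RefSeq starts (GRCm38.p6) were searched on both strands for 3 motifs that nuclear receptors of this network are known to bind. Promoters of 32 listed genes matched by symbol, 39 in all, whether or not the gene was tested or fell. The ERR motif TNAAGGTCA was in 0 of 39, beside 1.14% of all 32851 promoters, and the direct repeat of AGGTCA spaced by 1 base in 0 of 39, beside 0.0335%. At shares this low, 39 promoters are too few for a count of 0 to tell the listed genes from other genes. The core AGGTCA, which both longer motifs contain, was in 8 of 39 promoters, or 20.5%, of 7 genes, beside 14.0% of all promoters. The genes were Ucp3, Acadm, Acadvl, Echs1, Plin2, Pparg and Rxrg. The stretches of Acadm, at chr3:153944644-153944893 on the minus strand, and of Rxrg, at chr1:167618015-167618264 on the plus strand, are shown 5′ to 3′ with the core, on either strand, in capitals. Acadm was the member lower in all 4 comparisons under quantile normalization without the score. In Acadm the core starts 249 bases before the start and in Rxrg 88 bases before it. A match describes these letters only.
Acadm: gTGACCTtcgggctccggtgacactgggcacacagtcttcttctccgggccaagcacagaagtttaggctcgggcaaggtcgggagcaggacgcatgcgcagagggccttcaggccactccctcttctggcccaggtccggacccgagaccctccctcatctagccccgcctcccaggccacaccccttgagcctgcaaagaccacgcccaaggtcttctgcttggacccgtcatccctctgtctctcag
Rxrg: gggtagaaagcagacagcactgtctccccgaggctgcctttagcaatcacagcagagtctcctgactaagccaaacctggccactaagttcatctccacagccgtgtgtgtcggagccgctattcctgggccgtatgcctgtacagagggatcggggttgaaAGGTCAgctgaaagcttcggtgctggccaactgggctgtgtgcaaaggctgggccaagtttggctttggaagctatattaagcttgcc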

How the data were processed

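Members and gene lists were chosen with earlier results of these data known. Per the file headers, the deposited non-normalized table holds mean bead intensity per probe and array, with no normalization or background subtraction, and the authors' GenomeStudio export (version 2011.1, per the submitters' processing notes) adds each probe's detection p-value and bead number. The authors' deposited final file holds normalized intensity per group, with difference p-values whose adjustment is not given in the sources used here. No column of a sample (0) went unused.

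Intensities of 15 arrays were corrected with neqc (offset 16), quantile normalized and set to log2 in limma 3.58.1 (R 4.3.3), since the deposited values are not log2. The offset understates fold changes of dim probes. Kept were the 14763 probes (10952 genes) whose detection p was below 0.05 on 3 arrays or more. The 4 group means were fitted together over all of these, and p-values were Benjamini-Hochberg adjusted over them, with calls under 0.05. All adjusted p-values are limma's. A gene stands for its brightest kept probe. Array number limits the precision.

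Named are the 7 regulators Ppargc1a, Ppargc1b, Ppara, Ppard, Pparg, Esrra and Esrrg, the 5 highest and 5 lowest called members of each comparison and of the interaction, members with probes called in opposite directions, and the 3 highest and 3 lowest called other pathway genes. Further members were described after their values were seen, to account for each role. Alternatives were all 16 arrays, array weights, the probe difference score, median scaling, no background correction, no or a stricter detection filter, the second brightest probe, only the groups compared, trended robust eBayes, a replicate block, the authors' deposited values and leaving out each array. The test was tested on simulated data with added changes. Of changes of 1 on the log2 scale, 91% were recovered with CDTX after SCI, 97% after sham surgery, 91% between the CDTX groups, 95% between the saline groups and 43% in the interaction.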

Additional observations from a re-analysis of the deposited data

Results flagged for a closer look

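The CDTX effect differed between SCI and sham surgery, by limma's interaction test, for 10 members. The log2 difference (SCI minus sham) was 2.3 for Decr1, 1.9 for Pnpla2, 1.8 for Acaa2, 1.69 for Acads, 1.06 for Acaa1a, 0.87 for Esrra, 0.86 for Lpl, 0.85 for Mlycd, 0.76 for Cpt1b and -0.9 for Ppargc1b. With the probe difference score as a covariate 0 of the 29 members passed, and the values of Acaa1a and Ppargc1b turned to -0.14 and 0.97. The other Acads probe gave 0.3 (adjusted p = 0.442).

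A single array lay far from the other 3 of its group in 4 of 87 sets of 4 arrays examined, where chance gives about 1 in 20. Acsl1 read 8.22 on array 1 of SCI+Saline and 8.87 to 8.99 on the others. Hadhb read 10.64 on array 3 of Sham+CDTX and 10.84 to 10.87 on the others. Rxrg read 6.64 on array 1 of Sham+CDTX and 7 to 7.07 on the others. Acadvl read 10.29 on array 2 of Sham+CDTX and 9.81 to 9.88 on the others.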

How the results depend on the processing

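Counts are of the 29 members. With all 16 arrays, 1 member was higher with CDTX after SCI, 2 higher and 3 lower between the CDTX groups, 0 higher between the saline groups and 0 downward in the interaction. With array weights, 0 were higher between the saline groups and 2 downward in the interaction. With the probe difference score, the CDTX groups had 1 higher and 0 lower, the sham CDTX comparison 1 higher and 14 lower, and the interaction 0 upward and 0 downward. Median scaling shifted the median of all genes to 0.07 and 0.35 with CDTX after SCI and sham surgery, -0.01 between the CDTX groups, 0.18 between the saline groups and -0.24 in the interaction. The share of all calls that were higher went from 49.8% to 65.6%, from 46.9% to 84.1%, from 51.1% to 46%, from 48.1% to 85.7% and from 54.4% to 19.4%. Under it the members gave 6 higher and 7 lower between the saline groups (median 0.06), 2 higher and 11 lower with CDTX after sham surgery, and 4 upward and 7 downward in the interaction (median -0.18). Between the saline groups, 2 were higher with no background correction, 0 with no detection filter, 0 with only the groups compared and 3 at the second brightest probe. In the interaction 0 were downward with no background correction, 0 with no detection filter, 2 with the stricter filter and 2 with trended robust eBayes. Only the groups compared gave 8 higher between the CDTX groups, and by the authors' deposited table, read at its difference p-value, the members lower with CDTX after SCI numbered 10.

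Leaving out each array gave 3 to 8 lower between the CDTX groups (3 without array 3 of SCI+CDTX or array 2 of Sham+CDTX), 0 to 1 higher between the saline groups and 0 to 2 downward in the interaction. Turns of direction are listed for the named members, in the comparisons that named them, and for the regulators, where a fit made a call. With the score the direction turned for Acaa1a (-0.14) and Ppargc1b (0.97) in the interaction. Between the CDTX groups it turned for Acads (-0.58), Decr1 (-0.79), Etfdh (0.59), Fabp3 (0.09) and Pparg (-0.47). With CDTX after sham surgery it turned for Acads (0.28) and Pparg (1.48). Outside this list other values turned too. Acadl went from 0.33 to -2.03 (adjusted p = 0.00714) with CDTX after sham surgery, and from -0.9 to 1.15 (adjusted p = 0.286) in the interaction. Acaa1a went from -0.31 to 1.04 (adjusted p = 0.0582) with CDTX after sham surgery. The second brightest probe turned Acads (-0.34) and Etfdh (0.7) between the CDTX groups, and median scaling turned Pparg with CDTX after sham surgery (0.75). Median scaling also turned Etfdh there, which was not named in that comparison, to 0.15 (adjusted p = 0.575). The cause was not tested. Replicate numbers did not pair the arrays: same-numbered arrays correlated at -0.27 to 0.38 (median -0.02) and others at -0.28 to 0.32 (median 0.01). With the replicate block 15 members were lower with CDTX after SCI and 5 between the CDTX groups, and the other counts did not move. Signals near background limit Acot2, Ucp2 and Ppargc1a.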
